A study of Mus musculus with 32 samples.

Results

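Nascent RNA was set against mature RNA, gene by gene, in undifferentiated mouse embryonic stem cells before any doxycycline was added. The 4 libraries of this comparison, of 32 in the series, were chosen by their labels: 2 PRO-seq libraries (A and B) and 2 mRNA-seq libraries of the undifferentiated course (1 and 2), all at 0 h. All came from TX1072, a female F1 hybrid embryonic stem cell line with 1 genome from the B6 strain (C57BL/6) and 1 from the Cast strain (CAST/EiJ), which carries a doxycycline-responsive promoter at Xist on the B6 X chromosome and the rtTA activator in the Rosa26 locus. The cells grew on gelatin in serum-containing medium with leukemia inhibitory factor (LIF) and 2i, the Gsk3 inhibitor CT-99021 with the MEK inhibitor PD0325901. TX1072 is a single line, so no other genotype or clone enters these values. Of 26501 genes in either table, 13827 were in both, and 11226 had a mean log2(RPKM + 0.5) of at least 1 over the 4 libraries and were kept.

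PRO-seq is a nuclear run-on: polymerases already engaged on the DNA in isolated nuclei extend their transcripts with a biotinylated nucleotide, so the library reports where transcription is under way. The mRNA-seq kit selects polyadenylated RNA from whole cells, so it reports what has accumulated after synthesis, processing and decay. Between genes transcribed alike, the one with the longer-lived message gives the lower ratio of nascent to mature RNA; genes whose product is unstable, carries no poly(A) tail or is processed to a small RNA give a high one. The ratio used here is the mean log2(RPKM + 0.5) of the nascent libraries minus that of the mature libraries, centred on the median of the genes kept. RPKM (reads per kilobase of exon, scaled to the reads of the library) divides by the same exon length in both tables, so that divisor cancels. Each table was scaled on its own, so the ratio ranks genes against each other. It is not free of gene structure: it went with exon number and gene span, as given below. It gives no absolute half-life, no test was run between the tables, and every statement on it is a description. A gene is called nascent-high or mature-high where the centred ratio is at least 4-fold (2 on the log2 scale) and no nascent library overlaps a mature one.

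Sequence features known for 3 of the gene groups described below are shown first, as background to those groups. Replication-dependent histone messages end in a stem-loop in place of a poly(A) tail. The core of that stem-loop (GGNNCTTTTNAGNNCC, transcribed strand) was found in the last 100 bases of a GENCODE vM21 transcript for 10 of 28 listed histone genes with a protein-coding model and for 12 of 21800 other protein-coding genes (0.055%). It is in capitals in the 5 that were kept in the comparison, written 5′ to 3′ with flanking bases. They lie on chromosome 13 (GRCm38, which is mm10), plus strand.
Hist1h2bb (chr13:23747198-23747223): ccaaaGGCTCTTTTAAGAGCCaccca
Hist1h2bj (chr13:22043633-22043658): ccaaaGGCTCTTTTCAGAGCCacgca
Hist1h2bk (chr13:22036295-22036320): ccaaaGGCTCTTTTAAGAGCCactaa
Hist1h3b (chr13:23752815-23752840): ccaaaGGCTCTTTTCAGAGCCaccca
Hist1h4b (chr13:23757361-23757386): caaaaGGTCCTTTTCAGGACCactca

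Messages of immediate-early and feedback genes often carry ATTTA repeats in the 3′ untranslated region, the core of the AU-rich element that decay factors bind. The windows below hold overlapping ATTTA repeats, in capitals, in Fos on the plus strand of chromosome 12 and Dusp1 on the minus strand of chromosome 17.
Fos (chr12:85477107-85477136): ttcaATTTATTTAttaagatggattctcag
Dusp1 (chr17:26506150-26506179): ccttATTTATTTAacacccccctcaccccc

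Messages of ribosomal proteins and translation factors often begin with a C followed by a run of pyrimidines (the TOP motif), through which their translation is regulated. The windows below run from 10 bases before to 20 bases after a RefSeq start (GRCm38.p6), with the pyrimidine run in capitals; Rps6 is on the minus strand and the others on the plus strand.
Fau (chr19:6057937-6057966): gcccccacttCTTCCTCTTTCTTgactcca
Gnb2l1 (chr11:48800350-48800379): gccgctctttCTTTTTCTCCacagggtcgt
Rpl14 (chr9:120571507-120571536): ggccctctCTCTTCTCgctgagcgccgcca
Rps6 (chr4:86857348-86857377): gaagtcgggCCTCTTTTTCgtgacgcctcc

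The labels' cell type was checked first. Nanog, a transcription factor of naive pluripotency (chromosome 6, 122707489 to 122714633), had 119.9 and 169 RPKM in the nascent libraries, against 520 and 547 RPKM in the mature libraries. Both nascent values lay below both mature values, and the centred log2 ratio was -2.22 (SE 0.25, n = 2 libraries each). Pou5f1, which encodes Oct4, had 49.6 and 58.4 RPKM in nascent RNA and 554 and 453 RPKM in mature RNA. Of the markers of other cells, the 11 listed fibroblast or feeder genes summed to 9.82 and 7.81 RPKM in nascent RNA. In mature RNA they summed to 13.04 and 8.57 RPKM. Thy1, the only one of them kept, had 2.48 and 2.20 RPKM in nascent RNA and 9.03 and 5.80 RPKM in mature RNA. Col3a1, Dcn and S100a4, also of this list, were at 0 in both nascent libraries. The 10 primitive endoderm markers summed to 44.1 and 45.1 RPKM in nascent RNA and 127 and 156 RPKM in mature RNA, most of it from Sparc and Lama1, while Gata4 and Gata6 did not exceed 1.07 and 0.88 RPKM in nascent RNA. The 8 trophectoderm and two-cell-like markers summed to 46.7 and 44.3 RPKM in nascent RNA and 22.6 and 39.3 RPKM in mature RNA. In bulk RNA, fewer cells of a type and less RNA per cell cannot be told apart. The 10 neural and mesendoderm markers summed to 40.0 and 42.2 RPKM in nascent RNA and 26.2 and 45.2 RPKM in mature RNA.

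The RPKM values of the nascent libraries were scaled on 8137630 (A) and 6811800 (B) reads and those of the mature libraries on about 63886601 (1) and 69335697 (2) reads, estimated from the steps between low values. The mature libraries are thus several times deeper, and a nascent value of 1 RPKM rests on few reads. Replicates ranked genes alike: Spearman's rho across the 11226 genes was 0.956 between the nascent libraries and 0.985 between the mature ones. Genes are not independent replicates, and these are descriptions. X-linked genes need care: in the mature library at 2 h replicate 1, outside this comparison, Rpl10 had 850 RPKM, against 16.0 to 22.6 RPKM in the 11 other undifferentiated mature libraries, and 175 of 502 X-linked genes were over 2-fold above all of those, against 307 of 13325 autosomal genes. Which values are nearer to the cells' content was not tested, so the chromosome of each X-linked gene is named beside its value.

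Among the genes kept, nascent and mature levels were only loosely related (Spearman's rho 0.466, Pearson's r 0.455 on the log2 scale, 11226 genes within the same 4 libraries). The filter on the mean of both levels leaves out genes low in both, which can weaken this relation. The ratio, which is computed from both levels, went mainly with the mature level (Spearman's rho -0.775) and little with the nascent level (0.131). Lists of abundant messages are to be read with that limit. The centred log2 ratio had a standard deviation of 1.77 over genes, and its quartiles were at -1.05 and 1.19, which is a 4.72-fold span. By comparison, the median standard error of a gene's ratio from the replicates was 0.18. There were 1581 nascent-high genes (14.1% of the genes kept) and 1036 mature-high genes (9.23%). These shares are the background for the counts of each gene list below. The genes nearest to the 4-fold limit were Unc5cl at 2.0008 inside it and A730049H05Rik at 1.9996 just outside on the nascent side, and Echdc2 at -2.0005 inside it and Slc25a3 at -1.9975 outside on the mature side, so the limit falls in a continuous distribution.

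**Figure D1:**
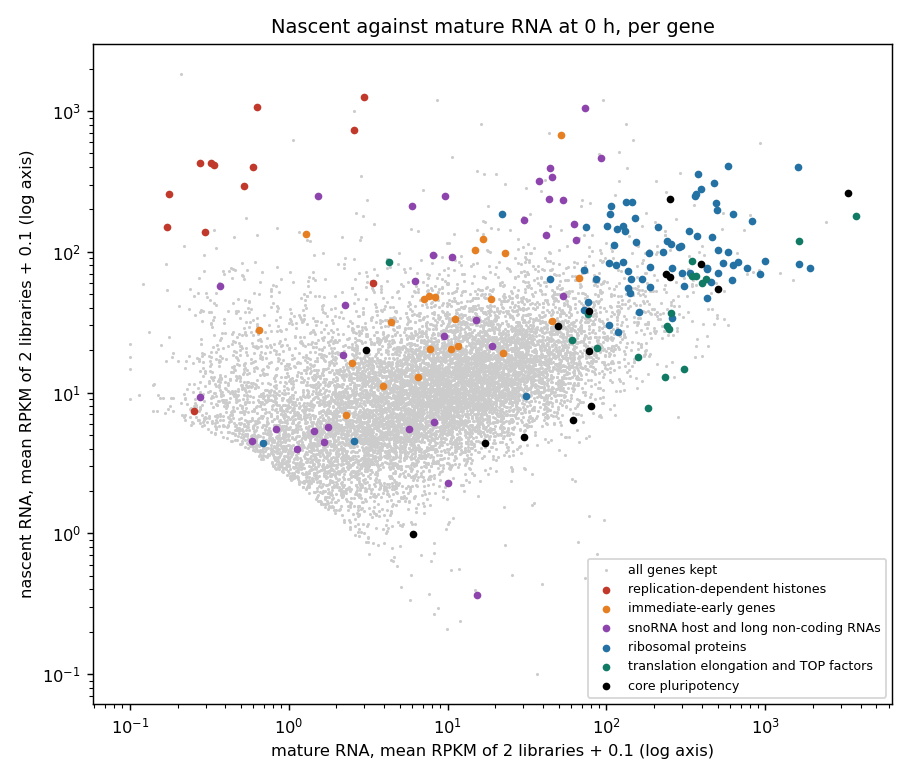
Mean RPKM of the 2 nascent libraries (vertical log axis) against mean RPKM of the 2 mature libraries (horizontal log axis) at 0 h; each point is a gene, 0.1 is added for display, and the sloping lower left edge is the filter on mean level. Histone genes (red) lie at the upper left, with a median of 400 RPKM in nascent RNA and 0.24 RPKM in mature RNA, while most translation factors (green) lie at the right of the cloud.

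Histones stood at the top. Replication-dependent histone genes supply the proteins that package new DNA in S phase. Of 29 listed genes, 13 had a row in both tables and were kept, and the other 16 had a nascent row only; the 13 entered through their nascent level. All 13 were nascent-high, with a median centred log2 ratio of 8.31 (lowest 3.26, highest 9.67), beside 14.1% nascent-high over all genes. Hist1h1a, a linker histone gene (chromosome 13, 23763717 to 23764358), had 809 and 1342 RPKM in nascent RNA, against 0.63 and 0.43 RPKM in mature RNA, a ratio of 9.67 (SE 0.39). Hist1h4i, which encodes histone H4 (chromosome 13, 22040636 to 22041362), had 1098 and 1413 RPKM in nascent RNA and 4.07 and 1.67 RPKM in mature RNA (8.31, SE 0.57). The H1 gene Hist1h1c had 637 and 835 RPKM in nascent RNA and 3.70 and 1.25 RPKM in mature RNA (7.76, SE 0.66). In each of these genes both nascent libraries lay far above both mature ones, and the mature libraries differed more from each other than the nascent ones did in Hist1h4i and Hist1h1c.

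The 5 genes with a printed stem-loop lay between 7.27 (Hist1h2bb) and 8.78 (Hist1h2bk). Hist1h2bk, an H2B gene, had 260 and 595 RPKM in nascent RNA, against 0.26 and 0.18 RPKM in mature RNA (ratio 8.78, SE 0.60), and Hist1h3b had 119 and 181 RPKM, against 0.076 and 0.070 RPKM. Hist1h2bc, which encodes histone H2B, stood lower than most at 3.69 (SE 0.76), with 39.4 and 80.4 RPKM in nascent RNA and 4.70 and 1.90 RPKM in mature RNA. Hist3h2a was lowest at 3.26 (SE 0.19), with 8.25 and 6.43 RPKM in nascent RNA and 0.19 and 0.11 RPKM in mature RNA; its span overlaps Trim17 on the same strand. Among the genes with no mature row, Hist1h3c, which encodes histone H3, had the highest nascent level, 584 and 796 RPKM. Summed over the 13 genes in both tables, histones made up 4499 and 6780.3 RPKM of nascent RNA and 15.0 and 7.503 RPKM of mature RNA, so library B was the higher of the nascent pair and library 1 of the mature pair. Histone genes come in near-identical copies between which reads may be split, so single values are uncertain.

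Small RNA genes were mostly nascent-high among those kept. Many snoRNAs and miRNAs are cut out of a longer primary transcript, and the mature forms carry no poly(A) tail. Of 206 listed genes, 71 were in both tables and 34 were kept. Of these, 22 were nascent-high (64.7%, beside 14.1% over all genes kept) and 1 was mature-high, with a median log2 ratio of 2.87. The median depends on the genes kept: over all 71 it was 0.65, with 25 nascent-high, and with allele-assigned nascent reads over the whole gene it was 7.02 (50 genes kept). Scarna2, a guide RNA of Cajal bodies (chromosome 3, 108554338 to 108554751), had 2126 and 1544 RPKM in nascent RNA and 0.11 and 0.10 RPKM in mature RNA (11.22, SE 0.23), the highest ratio of any gene kept. Snord100, a C/D box snoRNA within Rps12, had 649 and 756 RPKM in nascent RNA and 48.4 and 38.6 RPKM in mature RNA (3.69, SE 0.20); reads of the host gene on the same strand cannot be told apart from its own. Snord118 (U8 snoRNA), with 3261 and 3893 RPKM, was the highest nascent gene without a mature row, followed by the snRNA genes Gm23686, Gm23143 and Gm22265. The mature-high member, Mir1957a, rested on 0 and 6.67 RPKM in nascent RNA, lies within Slc2a1 and is not a firm call.

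The mature sequences of the miRNA genes named here are printed from RefSeq (GRCm38.p6), with the seed, bases 2 to 8, in capitals. No seed is shared among them.
mmu-miR-295-5p: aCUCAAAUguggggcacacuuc
mmu-miR-295-3p: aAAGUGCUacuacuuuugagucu
mmu-miR-5136: aUAUGCGAgggaacuacugg
mmu-miR-6991-5p: uGGAGAACagggacugggccug
mmu-miR-6991-3p: gCAGCCCUuuguucuucuccag

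Mir295 belongs to the cluster of miRNAs that predominates in mouse embryonic stem cells. Its hairpin (chromosome 7, 3220773 to 3220841) had 1138 and 1264 RPKM in nascent RNA and 43.6 and 145.3 RPKM in mature RNA (3.59, SE 0.87), with mature libraries that differed more than the nascent ones. Mir5136 had 1146 and 863 RPKM in nascent RNA and 3.09 and 1.90 RPKM in mature RNA (8.09, SE 0.36), and lies opposite Lbhd1. Mir6991 had 716 and 528 RPKM in nascent RNA and 1.12 and 0.82 RPKM in mature RNA (8.40, SE 0.26), and lies within 2700081O15Rik on the same strand. The mature values rest on few reads because the rows are short: about 15 and 5 reads for Mir5136 and Mir6991 in mature library 1.

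Of 46 listed long non-coding RNAs and snoRNA host genes, 35 were kept, with a median log2 ratio of 2.00. Of these, 18 were nascent-high (51.4%, beside 14.1% over all genes kept) and 2 mature-high. With no filter on level, 16 of 40 were nascent-high and the median was 1.78. Among the 13 that overlap no other gene, 6 were nascent-high and the median was 1.26. Gas5, a snoRNA host whose spliced message is known to be degraded during translation (chromosome 1, 161034422 to 161038539), had 1070 and 1023 RPKM in nascent RNA and 65.9 and 81.3 RPKM in mature RNA (3.51, SE 0.15). Snhg9, the host of Snora78 and antisense to Rps2, had 258 and 237 RPKM in nascent RNA and 1.45 and 1.42 RPKM in mature RNA (6.68, SE 0.06). Snhg5 had 431 and 496 RPKM in nascent RNA, against 94.7 and 89.9 RPKM in mature RNA (2.00, SE 0.11).

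Neat1, the scaffold of paraspeckles, had 207 and 213 RPKM in nascent RNA, against 2.14 and 9.56 RPKM in mature RNA (5.04, SE 0.96); the mature replicates were far apart and both below the nascent ones. Tsix, the antisense repressor of Xist on the X chromosome, had 44.9 and 70.2 RPKM in nascent RNA and 0.20 and 0.34 RPKM in mature RNA (5.89, SE 0.35). The imprinted RNA H19 went the other way, with 0.16 and 0.37 RPKM in nascent RNA and 12.6 and 17.7 RPKM in mature RNA (-4.67, SE 0.31); its nascent value in library A rests on about 3 reads. By annotation, the median log2 ratio was 2.77 for 201 lincRNAs, 3.20 for 140 antisense genes and 4.02 for 25 lncRNAs at bidirectional promoters, and -0.14 for 10072 protein-coding genes. The median mature level of these non-coding types was 1.20, 0.63 and 0.47 RPKM, so under a filter on the mean of both assays a gene at such a mature level passed only where its nascent level was higher, and their medians are in part set by the filter.

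Immediate-early genes encode transcription factors and regulators that are induced within minutes and whose messages are short-lived in most cells. Of 28 listed, 22 were kept, 10 of them nascent-high (45.5%, beside 14.1% over all genes kept) and 0 mature-high. The median log2 ratio was 1.52, and the other 12 lay between -0.80 and 1.79. Fos (chromosome 12, 85473890 to 85477273) had 112 and 155 RPKM in nascent RNA, against 0.62 and 1.75 RPKM in mature RNA (6.06, SE 0.56). Ier2 had 787 and 562 RPKM in nascent RNA and 49.7 and 53.0 RPKM in mature RNA (3.37, SE 0.25). Gadd45g, a stress and growth-arrest gene, had 29.9 and 25.8 RPKM in nascent RNA and 0.53 and 0.57 RPKM in mature RNA (4.43). Jun had 33.1 and 29.7 RPKM in nascent RNA and 3.13 and 5.47 RPKM in mature RNA (2.46), and Zfp36, whose protein binds AU-rich elements, had 16.0 and 16.4 RPKM in nascent RNA and 1.53 and 3.24 RPKM in mature RNA (2.28). In each of these 5 genes both nascent libraries lay above both mature ones.

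Myc, a regulator of growth (chromosome 15, 61985341 to 61990374), had 12.8 and 12.8 RPKM in nascent RNA, against 9.28 and 3.55 RPKM in mature RNA. The nascent libraries lay above the mature ones, but the ratio of 0.77 (SE 0.64) was below the limit. The mature replicates kept this gap at later times: the replicate 1 libraries of the course held 9.28 to 12.1 RPKM and the replicate 2 libraries 3.19 to 6.05 RPKM. Mycn, its paralogue and the more abundant of the pair here, had 65.5 and 63.6 RPKM in nascent RNA and 66.7 and 68.0 RPKM in mature RNA (-0.38, SE 0.03). Klf10 was lowest in the list, with 29.6 and 34.8 RPKM in nascent RNA and 39.3 and 51.5 RPKM in mature RNA (-0.80, SE 0.22).

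With allele-assigned PRO-seq reads over the whole gene in place of exonic RPKM, which changes the reads counted as well as the part of the gene, the list's median was 0.11 (19 genes kept), with 2 nascent-high and 0 mature-high, and Myc was at -0.89, on 4 and 13 allele-assigned reads. Negative-feedback genes of signalling pathways were close to the middle in exonic RPKM, with a median log2 ratio of 0.64. Of 28 listed, 24 were kept, 1 nascent-high (4.17%, below the 14.1% over all genes kept) and 0 mature-high. The phosphatase gene Dusp1 was the nascent-high one, with 332 and 279 RPKM in nascent RNA and 16.6 and 29.3 RPKM in mature RNA (3.44, SE 0.42). Lefty2, a secreted Nodal inhibitor, was lowest, with 44.6 and 63.8 RPKM in nascent RNA and 170 and 141 RPKM in mature RNA (-1.84, SE 0.29).

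**Figure D2:**
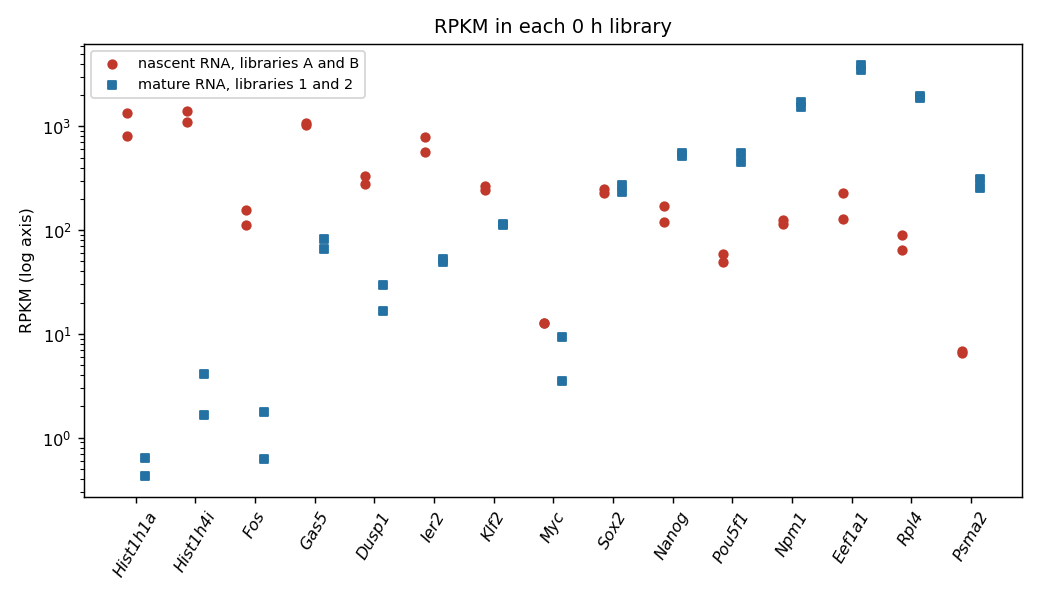
RPKM (log axis) of 15 genes in each 0 h library: red circles are nascent libraries A and B, blue squares are mature libraries 1 and 2. Nascent values lie above mature ones from Hist1h1a to Myc, overlap them at Sox2, and lie below them from Nanog (119.9 and 169 RPKM nascent, 520 and 547 RPKM mature) to Psma2.

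At the other end stood genes of constitutive protein synthesis. Of the 19 listed translation elongation factors and other proteins of the translation machinery, 18 were kept, 15 of them mature-high and 1 nascent-high, with a median log2 ratio of -3.08, beside 9.23% mature-high over all genes. Eef1a1, which brings aminoacyl-tRNA to the ribosome (chromosome 9, 78478449 to 78489151), had 129 and 227 RPKM in nascent RNA, against 3516 and 3933 RPKM in mature RNA (-4.75, SE 0.41). Npm1, the nucleolar chaperone nucleophosmin, had 125 and 115 RPKM in nascent RNA and 1719 and 1534 RPKM in mature RNA (-4.07, SE 0.10). Eif3h, an initiation factor subunit, had 5.20 and 10.1 RPKM in nascent RNA and 193 and 173 RPKM in mature RNA (-4.88, SE 0.45).

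Ribosomal protein genes were more spread. Of 78 listed, 76 were kept, with 29 mature-high (38.2%, beside 9.23% over all genes kept), 1 nascent-high and 46 between. The median log2 ratio was -1.58, and 65 of the 76 were below 0. Rpl4, of the large subunit (chromosome 9, 64173387 to 64178562), had 64.1 and 89.5 RPKM in nascent RNA and 1858 and 1946 RPKM in mature RNA (-4.96, SE 0.24). Rpl8 had 352 and 453 RPKM in nascent RNA, against 1647 and 1573 RPKM in mature RNA (-2.33, SE 0.18). Rpl41, the smallest ribosomal protein, had nascent levels of 399 and 415 RPKM, close to its mature levels of 604 and 553 RPKM (-0.82, SE 0.07). The nascent-high one was X-linked Rpl10, with 168 and 205 RPKM in nascent RNA, against 22.6 and 21.4 RPKM in mature RNA (2.73). Many ribosomal protein genes have near-identical processed pseudogenes that can take their reads, so single values are uncertain. With allele-assigned nascent reads over the whole gene the median was -0.49, with 19 mature-high and 4 nascent-high of 75.

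The TOP-like run, a C followed by 5 C or T bases within 2 bases before to 8 bases after a RefSeq start, was found in 17 of 57 ribosomal protein genes with a RefSeq promoter (29.8%), in 5 of 11 translation factor genes (45.5%) and in 1820 of 27025 genes with a RefSeq promoter (6.73%). Only the transcribed strand was searched. Its share was 8.68% in mature-high genes, 7.41% in nascent-high genes and 7.60% in all genes kept, so the shares of both called groups were near that of all genes. Of the 4 genes whose start is printed, Rpl14 was at -3.16, Fau at -3.11, Gnb2l1 at -2.32 and Rps6 at -1.34.

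Other constitutive machinery lay on the same side. The proteasome, which degrades ubiquitinated proteins, had 35 of 39 genes kept, with a median log2 ratio of -2.35. Of these, 22 were mature-high (62.9%, beside 9.23% over all genes kept) and 1 was nascent-high. Psma2, a subunit of its core, had 6.77 and 6.53 RPKM in nascent RNA and 308 and 256 RPKM in mature RNA (-5.61, SE 0.14), the lowest ratio of a protein-coding gene named here. Psmb10, an immunoproteasome subunit, was the nascent-high one, with 16.3 and 11.6 RPKM in nascent RNA and 2.98 and 1.59 RPKM in mature RNA (2.08, SE 0.44). Of 21 cytoskeletal genes kept, 14 were mature-high (66.7%) and 1 nascent-high (median -2.43). The actin gene Actb had 69.3 and 78.9 RPKM in nascent RNA and 905 and 906 RPKM in mature RNA (-3.92, SE 0.09), and Actg1 had 29.9 and 30.7 RPKM in nascent RNA and 573 and 586 RPKM in mature RNA (-4.55, SE 0.02). The nascent-high one was X-linked Tmsb4x, with 35.6 and 39.9 RPKM in nascent RNA and 3.20 and 4.36 RPKM in mature RNA.

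Energy metabolism was lower on average but uneven. Of 17 glycolysis genes kept, 7 were mature-high (41.2%, beside 9.23% over all genes kept) and 0 nascent-high (median -1.62). Pgam1 had 12.3 and 23.9 RPKM in nascent RNA and 380 and 419 RPKM in mature RNA (-4.81, SE 0.47). Pkm, pyruvate kinase, had 50.1 and 90.9 RPKM in nascent RNA and 1124 and 1355 RPKM in mature RNA (-4.50, SE 0.45). Gapdh was near 0 at -0.33, with 96.3 and 116 RPKM in nascent RNA and 98.0 and 116.8 RPKM in mature RNA; this glycolytic gene has many pseudogenes and its value is uncertain. Of 65 nuclear genes of the respiratory chain and ATP synthase kept, 24 were mature-high (36.9%) and 2 nascent-high, with a median of -1.48. Atp5b, the catalytic subunit of ATP synthase, had 60.6 and 59.0 RPKM in nascent RNA, against 488 and 482 RPKM in mature RNA (-3.33, SE 0.02). The nascent-high pair were Ndufb2 (2.69) and X-linked Cox7b (3.52), for which nascent RNA held 26.6 and 38.6 RPKM and mature RNA 1.86 and 1.71 RPKM.

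**Figure D3:**
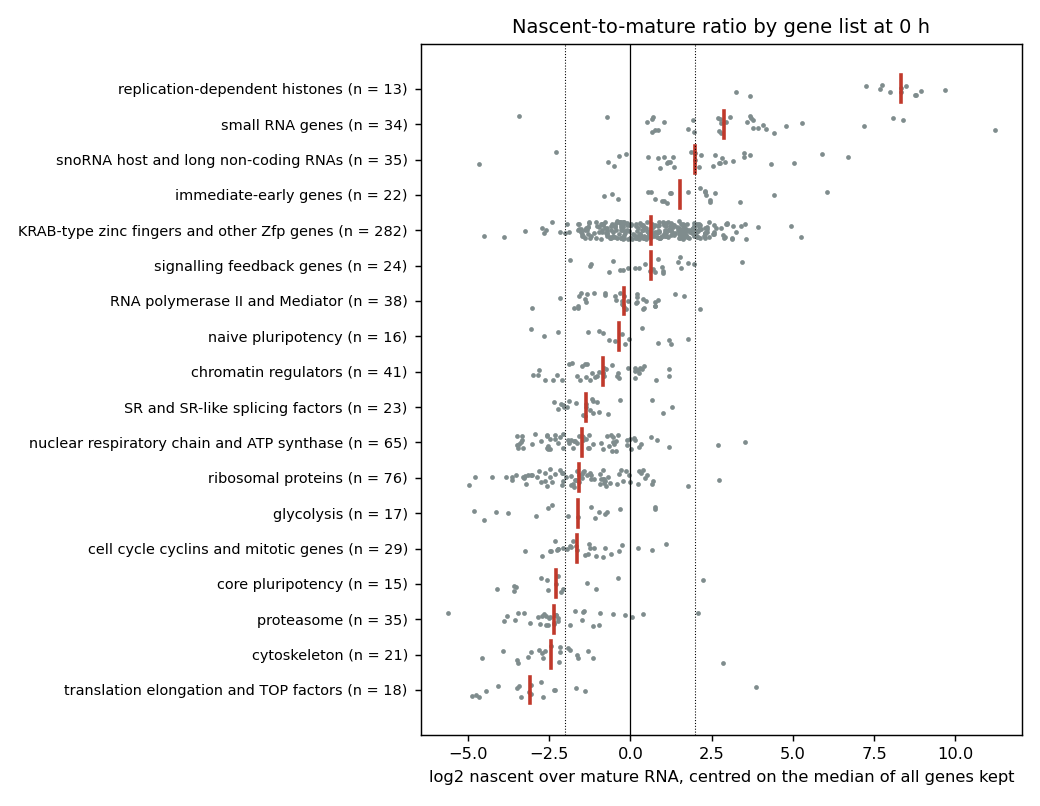
Centred log2 nascent over mature ratio of each gene kept (grey points) for the 18 lists with at least 10 genes kept, with the list's median as a red bar; the solid line is the median of all genes and the dotted lines are the 4-fold limits. Medians run from 8.31 for replication-dependent histones to -3.08 for translation factors.

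Pluripotency factors split. Of the general pluripotency genes, 15 of 15 listed were kept and 11 were mature-high (73.3%, beside 9.23% over all genes kept), with a median of -2.28. Without centring 7 were mature-high, and also 7 with allele-assigned nascent reads over the whole gene. Dppa5a, an RNA-binding protein gene of pluripotent cells, had 157 and 370 RPKM in nascent RNA and 3167 and 3473 RPKM in mature RNA (-4.09, SE 0.62). Pou5f1, described above, was at -3.52. Sox2, the partner of Oct4, was different and below the 4-fold limit. It had 227 and 250.4 RPKM in nascent RNA and 231 and 273 RPKM in mature RNA (-0.39, SE 0.14). Its nascent and mature values overlapped in RPKM, though not after centring. Sox2 lies within Sox2ot on the same strand.

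The naive factors were near the middle. Of 16 genes kept, 3 were mature-high (18.8%, beside 9.23% over all genes kept) and 0 nascent-high, with a median log2 ratio of -0.36. Mature-high were Nanog, Zfp42 (Rex1), with 37.0 and 36.9 RPKM in nascent RNA and 206 and 172 RPKM in mature RNA (-2.65, SE 0.13), and Dppa3, with 12.0 and 17.3 RPKM in nascent RNA and 82.0 and 118 RPKM in mature RNA (-3.05, SE 0.37). Klf2, a Krüppel-like factor, had 246 and 263 RPKM in nascent RNA, against 113 and 114 RPKM in mature RNA (0.84, SE 0.05). Gbx2 was highest at 1.79 (SE 0.51), with 15.2 and 17.3 RPKM in nascent RNA and 5.01 and 2.24 RPKM in mature RNA. With allele-assigned nascent reads over the whole gene Nanog was at -0.92 and lost its call, and the median of the naive list was -0.28.

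Regulatory genes lay between these ends. Of 282 zinc finger genes kept, 45 were nascent-high (16.0%, near the 14.1% over all genes kept) and 9 mature-high, with a median of 0.65. The highest was Zfp963 at 5.24 (SE 0.35), with 61.4 and 38.9 RPKM in nascent RNA and 0.46 and 0.65 RPKM in mature RNA, whose span overlaps Gm20422. Of 38 RNA polymerase II and Mediator genes, 2 were mature-high (5.26%) and 1 was nascent-high (2.63%), with a median of -0.21. Each share was below that over all genes kept. The nascent-high gene was X-linked Med12, a Mediator subunit, at 2.14, with 17.98 and 12.3 RPKM in nascent RNA and 2.29 and 2.30 RPKM in mature RNA. Polr2g, a polymerase subunit, had 82.8 and 71.4 RPKM in nascent RNA and 75.7 and 64.9 RPKM in mature RNA (-0.18, SE 0.15), so its groups overlapped. Of 41 chromatin regulators, 7 were mature-high (17.1%, beside 9.23% over all genes kept) and 0 nascent-high (median -0.85). Suz12, of the Polycomb repressive complex, had 16.9 and 22.4 RPKM in nascent RNA, against 124 and 132 RPKM in mature RNA (-3.01, SE 0.21). Kdm6b, a histone demethylase, was highest at 1.18 (SE 0.24).

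Of 23 splicing factor genes, 5 were mature-high (21.7%, beside 9.23% over all genes kept) and 0 nascent-high (median -1.35). Srsf7 had 49.3 and 55.7 RPKM in nascent RNA and 161 and 189 RPKM in mature RNA (-2.04, SE 0.14), and the kinase gene Clk2, known for retained introns, was highest at 1.29 (SE 0.18), with 32.1 and 34.0 RPKM in nascent RNA and 9.24 and 11.9 RPKM in mature RNA. Of 29 cell cycle genes, 9 were mature-high (31%) and 0 nascent-high (median -1.65). Mcm4, of the replicative helicase, had 30.5 and 28.8 RPKM in nascent RNA and 248 and 207 RPKM in mature RNA (-3.23, SE 0.14). Cdkn1a, the inhibitor p21, stood at the other end with 284 and 349 RPKM in nascent RNA and 99.9 and 139 RPKM in mature RNA (1.10, SE 0.28).

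The 12 genes at each end joined histones, small RNAs and antisense genes at the top. At the bottom they joined some processed pseudogenes and constitutive genes. With at least 0.5 RPKM in each assay, the 12 highest ratios among called genes were those of Hist1h1a, Mir6991, Hist1h4i, Mir5136, Hist1h1c, Rab26os, Gm12030, Snhg9, Tsacc, Gm29283, 1700092M07Rik and Gm28424, from 9.67 to 6.08. Rab26os, antisense to Rab26, had 1432 and 953 RPKM in nascent RNA, against 7.62 and 9.26 RPKM in mature RNA (6.72, SE 0.32). Tsacc, which encodes a chaperone partner of a testis kinase, had 172 and 123 RPKM in nascent RNA and 0.58 and 0.92 RPKM in mature RNA (6.57, SE 0.32), and overlaps Gm37116 and Gm38392. Among the 12 lowest were Gm9794, Rpl10a-ps1, Rpl39-ps and Gm6863, all processed pseudogenes, then Psma2, Rpl4, Ptma, Eif3h, Pgam1, Nsa2 and Eef1a1. Processed pseudogenes as a type did not lie at this end, and Gm12030, among the highest, is one too. The 78 kept had a median log2 ratio of 2.35, with 57.7% nascent-high and 21.8% mature-high. Rpl10a-ps1 had 0.19 and 1.35 RPKM in nascent RNA and 66.3 and 66.7 RPKM in mature RNA (-6.21, SE 0.71). Such a copy can share reads with its parent gene, so its value is uncertain, and 1 nascent read in library A lies behind it. Ptma, prothymosin alpha, had 42.6 and 82.5 RPKM in nascent RNA and 1581 and 1399 RPKM in mature RNA (-4.95, SE 0.48).

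Some genes named here share their span with another gene, whose reads could be counted with theirs: Rpl4 with Snord16a, Atp5b with Mir677 and Med12 with Gm21986 on the same strand, and Gas5 with Zbtb37, Mir295 with Nlrp12, Suz12 with Gm26563, Psmb10 with Gm16156 and Gbx2 with D130058E05Rik on the opposite strand. Outside the genes in both tables, 12613 genes had a nascent row only, 4043 of them at 1 RPKM or more, and 61 had a mature row only. The highest mature genes with no nascent row were Gm43558 (65.4 and 87.4 RPKM), Gm5812, Gm8292, Gm12669 and Gm43444 (10.5 and 10.8 RPKM), of which Gm5812, Gm8292 and Gm12669 are processed pseudogenes. The elongation factor gene Eef2, the immediate-early gene Egr1 and the feedback gene Id2 had a nascent row only at 0 h, so their ratio was not computed.

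Gene structure went with the ratio. Protein-coding genes were grouped by the number of merged exons in GENCODE vM21. The ratio rests on exonic RPKM, so this annotation is not independent of it. The median log2 ratio was 1.66 for 232 genes with 1 exon, 0.92 for 348 with 2, 0.35 for 1155 with 3 to 4, 0.05 for 1920 with 5 to 7, -0.18 for 2651 with 8 to 12, -0.35 for 2252 with 13 to 20, and -0.55 for 1514 with 21 or more. The rank correlation across genes was weak (Spearman's rho -0.236, 10072 genes). The share of nascent-high genes was 40.5% with 1 exon and 2.11% with 21 or more. The median mature level was 2.77 RPKM with 1 exon and 8.35 RPKM with 21 or more. The filter on mean level may thus set part of the 1-exon median and share, which was not tested. Protein-coding genes spanning under 5000 bases had a median of 0.68 (1092 genes) and those of 50000 bases or more a median of -0.48 (2619 genes).

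**Figure D4:**
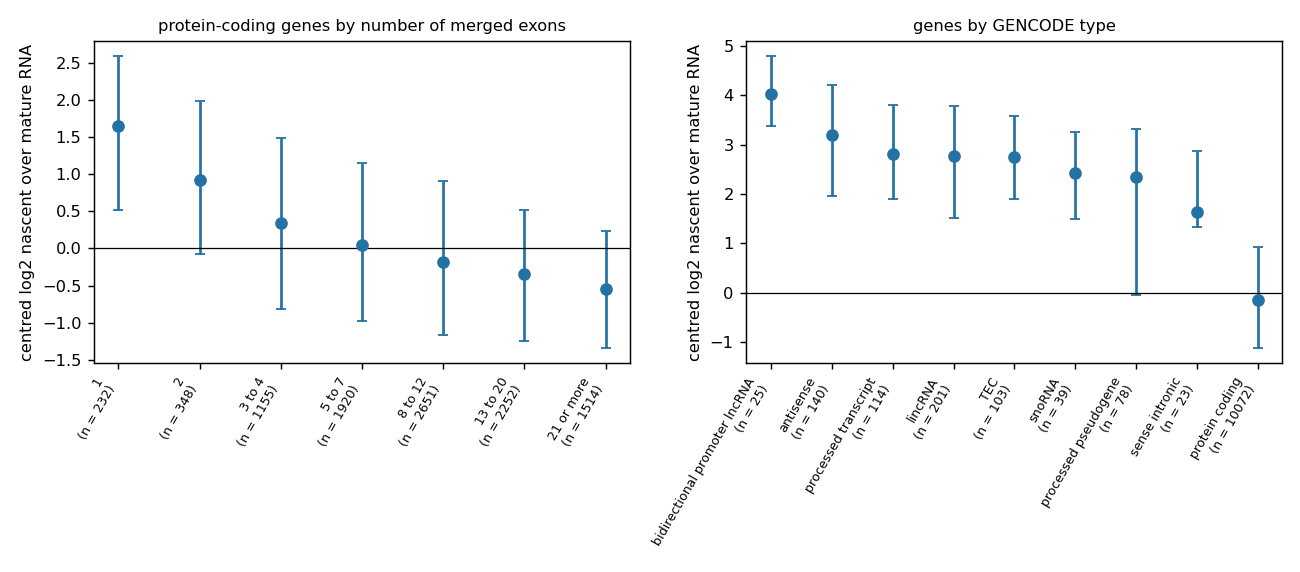
Median centred log2 nascent over mature ratio (points) with the quartiles (bars) for protein-coding genes by merged exon number (left) and for genes by GENCODE type (right). The median is 1.66 for genes with 1 exon and -0.55 for those with 21 or more, and every other type shown lies above the protein-coding median of -0.14, in part through the filter on mean level.

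AU-rich repeats did not go with a high ratio across genes. Protein-coding genes without ATTTA in the 3′ untranslated region had a median log2 ratio of 0.05 (3311 genes) and those with 8 or more a median of -0.40 (924 genes), with a Spearman's rho of -0.111 over 9975 genes. Among the immediate-early genes kept, 17 of 20 with a 3′ region held ATTTA (85%), with a median of 3 copies, against 66.8% and a median of 1 over all protein-coding genes kept. Of the nascent-high ones, Fos held 4 copies and Jun 4, while Ier2 and Gadd45g held 0. In ribosomal protein genes the median was 0, but their 3′ regions were short, with a median of 251 bases against 978 over all protein-coding genes kept. Per kilobase of 3′ region, ATTTA numbered 1.43 in ribosomal protein genes and 1.81 over all protein-coding genes kept. It numbered 2.79 in immediate-early genes and 2.37 in glycolysis genes.

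A TATA box (TATAAA starting 40 to 20 bases before a RefSeq start, transcribed strand) was present in 6 of 24 listed histone genes with a RefSeq promoter and in 5 of 18 immediate-early genes kept (27.8%). Over all genes kept it was in 112 of 8676 (1.29%), in 28 of 1025 nascent-high genes (2.73%) and in 13 of 783 mature-high genes (1.66%); over all RefSeq promoters it was in 2.40%. The windows below run from 45 bases before to 15 bases after the start on the plus strand of chromosomes 13 and 12, with the box in capitals.
Hist1h1a (chr13:23763623-23763682): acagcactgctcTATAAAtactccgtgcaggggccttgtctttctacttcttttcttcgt
Fos (chr12:85473845-85473904): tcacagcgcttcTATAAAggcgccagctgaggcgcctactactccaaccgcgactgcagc
A match is a description of these letters, and no factor's binding was measured.

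The X chromosome had a higher ratio than the autosomes. The median was 0.78 for 331 X-linked genes and -0.03 for 10895 autosomal genes. Of the X-linked genes, 79 were nascent-high (23.9%) and 15 mature-high (4.53%). The shares were 13.8% and 9.37% for autosomal genes. With allele-assigned nascent reads over the whole gene the X-linked median was 0.28. With the mature library at 2 h replicate 1 in place of the 0 h ones, it was -0.59. The X-linked shift thus changed sign with the mature library, and no level of X-linked genes is drawn from it.

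The ratio was compared with the speed at which mature RNA followed the loss of nascent transcription once doxycycline was added. The B6 share of allele-assigned reads was taken for 279 X-linked genes with at least 20 PRO-seq allele reads and a mature B6 share of 10 to 90% at 0 h, ranked by ratio into 3 groups of 93, of which 83 to 93 had a value in a given mature library. The median log2 ratio was 2.21 in the highest, 0.70 in the middle and -0.65 in the lowest group. In the 1 nascent library at 8 h the median share had changed by -9.42 points in the highest group, -9.51 in the middle and -10.6 in the lowest. In mature RNA at 8 h the highest group had changed by -7.45 and -3.62 points in replicates 1 and 2, the middle group by -6.68 and -2.73 and the lowest group by -5.15 and -2.44. The highest group thus differed from the lowest by -2.30 and -1.18 points in mature RNA, and by 1.15 points, the opposite sign, in nascent RNA. In the 1 nascent library at 0.5 h the difference was already -1.84 points. At 0 h, against the mean of both libraries, it was -0.51 and 0.51 points in nascent RNA and 0.53 and -0.31 points in mature RNA. Differences of similar size thus appeared early, and no order of the groups is drawn from them. At 12 h the changes were -12.1 and -8.12 points in the highest, -13.4 and -5.85 in the middle and -11.1 and -6.52 in the lowest group, so the highest differed from the lowest by -0.98 and -1.60 points and the middle group lay first in replicate 1 and last in replicate 2. At 24 h they were -21.7 and -14.5, -21.5 and -15.6, and -21.6 and -14.8 points in the same order of groups, and the highest differed from the lowest by -0.14 and 0.27 points. In nascent RNA that difference was 0.78 points at 12 h (1 library) and 1.43 and 3.32 points in libraries A and B at 24 h. With 2 mature replicates a time point and 1 nascent library at 8 and 12 h no test was made, and these differences are a description. The groups also rest on the X-linked ratio at 0 h, which shifted with the mature library used.

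**Figure D5:**
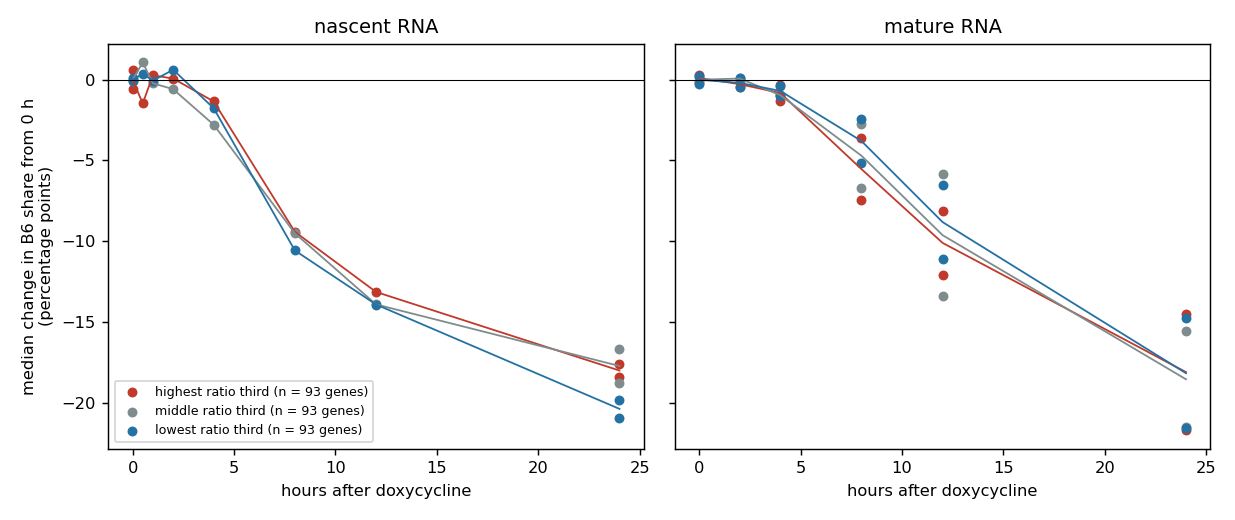
Median change in B6 share from 0 h, in percentage points, against hours after doxycycline for 93 X-linked genes in each of 3 ratio groups (red highest, grey middle, blue lowest), in nascent (left) and mature RNA (right); points are libraries and lines join the means. The groups run close together within an assay, and the mature replicates are offset from each other at 8, 12 and 24 h in all groups.

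The ratio was also computed in other libraries. With the nascent and mature libraries at 24 h, in autosomal genes, the ratio correlated with that at 0 h at Pearson's r = 0.988 over 10731 genes, and with the mature libraries of the differentiating course at 0 h the correlation was 0.992 over 11048 genes; this second ratio shares its nascent libraries with the main one. Of the 1502 autosomal nascent-high genes, 1279 were nascent-high again at 24 h (85.2%), and 838 of the 1021 autosomal mature-high genes were mature-high again (82.1%). The correlation was lower with 2 other choices. With the mature library at 2 h replicate 1 the correlation was 0.858, with 70.6% of nascent-high and 69.7% of mature-high calls shared, and with allele-assigned nascent reads over the whole gene it was 0.848, with 44.3% and 49.6% shared. At 24 h the median log2 ratio of histones was 8.27, of translation factors -3.03, of immediate-early genes 1.52 and of general pluripotency genes -2.23.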

How the data were processed

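The authors deposited 1 PRO-seq table and 2 mRNA-seq tables, with RPKM and the fraction of allele-assigned reads carrying the B6 allele; the PRO-seq table deposited by the authors also gives read counts per allele, which cover the whole gene, and gene coordinates. Per the submitters' processing notes, HTSeq 0.6.1, SAMtools, TopHat2 2.1.0, Bowtie 1.0.0 and cutadapt 1.8.2 were used with mm10; their roles are not given in the sources used here. Per the labels' protocols, RNA libraries were made with a stranded polyadenylated RNA kit and PRO-seq used biotin-CTP.

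From these, log2(RPKM + 0.5) was averaged per assay, genes with a mean of at least 1 were kept, and the difference was centred on their median (0.32). No test was made between tables normalized separately; calls need a 4-fold ratio and no overlap. SE combines the spread of 2 libraries per assay. The labels do not state separate cultures for replicates, so their spread may be technical. RPKM steps were matched to exon lengths: 88.6 and 88.4% of low PRO-seq values and 89.5 and 89.9% of low RNA values were whole reads within 0.02. PRO-seq starts count from 0, and 1 was added. GENCODE vM21 matched 10866 of 11226 genes by symbol.

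The members and the 22 gene lists were chosen with earlier results of these data known. Named genes are Nanog, Myc, the 12 highest and 12 lowest called genes with at least 0.5 RPKM in each assay, up to 4 members a list (highest ratio, lowest ratio and the 2 highest mean levels), and the 5 highest genes of each table alone; other list members, the genes at the 4-fold limit and those with a printed sequence were added after their values were seen. A few genes that the rule names are not reported here. The calculation of the ratio was also run on simulated reads, and no value given here comes from that run. Python 3.11.15, pandas 2.3.3, numpy 2.4.6, scipy 1.17.1 and matplotlib 3.10.9 were used. Reads carry no molecular identifiers, and no interval is given. The alternatives are given in the closing section; those on autosomal, non-overlapping or protein-coding genes and on the RNA library at 2 h were added after seeing the data.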

Additional observations from a re-analysis of the deposited data

Results flagged for a closer look

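The mature RNA library at 2 h replicate 1, which enters no ratio above except as a named alternative, stood apart from the other 11 undifferentiated libraries. In it, 175 of 502 X-linked genes were over 2-fold above every one of those libraries, against 307 of 13325 autosomal genes, while replicate 2 at 2 h had 0 of either. Rpl10 had 850 RPKM there and 16.0 to 22.6 RPKM in the others, and Cox7b, of the respiratory chain, had 350 RPKM there and 1.28 to 2.20 RPKM in the others. The same genes had 168 and 205 RPKM (Rpl10) and 26.6 and 38.6 RPKM (Cox7b) in nascent RNA at 0 h. Tmsb4x had 419 RPKM there and 1.00 to 4.36 RPKM in the others, and Rbbp7 224 RPKM there and 0.74 to 1.92 RPKM in the others. Its RPKM values summed to 362905, and those of the others to 258659 to 284124. The cause was not tested.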

How the results depend on the processing

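The counts of called genes, Nanog, Myc and the list medians were recomputed under 16 alternatives (15 for small RNA genes, which have no protein-coding member); other values were not. Nascent-high genes numbered 867 to 1984 and mature-high genes 625 to 1466. With at least 1 RPKM in each assay 891 genes were nascent-high, and among genes overlapping no other gene, a smaller set, 867 were nascent-high and 625 mature-high. Without centring the split was 1984 nascent-high to 693 mature-high. Leaving out 1 library gave 1529 to 1658 nascent-high and 982 to 1105 mature-high genes. No gene called one way was called the other way, except 2 with allele-assigned whole-gene reads and 7 with the mature library at 2 h replicate 1; the cause was not tested. Nanog was at -1.99 at 24 h and -1.90 without centring, short of the 4-fold limit and not called. With allele-assigned nascent reads over the whole gene, Nanog was at -0.92, Myc at -0.89, and the median was -0.49 for ribosomal proteins, -2.60 for translation factors and 0.11 for immediate-early genes. With the mature library at 2 h replicate 1, Myc was at -0.29, and the medians were 6.94 for histones, -3.03 for ribosomal proteins, -4.04 for translation factors and 0.13 for chromatin regulators, which changed sign. Histones were at 9.32 with a pseudocount of 0.1, 7.53 with 1, 7.95 with 1 RPKM in each assay and 7.31 with the RNA of the differentiating course. With 1 RPKM in each assay only 3 histone genes were kept, against 13 in the main run, so that median does not cover the list. Ribosomal proteins were at -1.65 with no filter, -1.40 with 1 RPKM in each assay, -1.26 without centring and -1.44 in protein-coding genes alone. Translation factors were at -2.89 with 1 RPKM in each assay and -2.77 without centring. Immediate-early genes were at 1.83 without centring, 2.12 with the RNA of the differentiating course and 1.91 among genes overlapping no other gene. Leaving out 1 library gave 7.86 to 8.46 for histones and 1.51 to 1.93 for immediate-early genes. Other medians that changed sign were near 0 or of few genes: RNA polymerase II and Mediator 0.11 without centring; snoRNA hosts and long non-coding RNAs -0.56 in protein-coding genes alone; fibroblast markers 0.26 and neural and mesendoderm markers -0.39 with allele-assigned whole-gene reads; trophectoderm and two-cell-like markers -0.029 with no filter and -0.13 at 24 h; leaving out 1 library moved these last markers from -0.34 to 0.72 and the neural ones from -0.19 to 0.66. No paired analysis was possible because the nascent libraries are lettered and the mature ones numbered, and no test was run. Depth limits the nascent values more than the mature ones (8137630 and 6811800 scaling reads).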
